A study of Homo sapiens with 3 samples.

Results

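The keratin genes are described here in RCC4, a human line from a clear cell carcinoma of the kidney, without functional VHL. The members are all rows of the gene table whose symbol is KRT followed by a number and, for some, a letter from A to C. They number 55 of 60605 genes, and keratin pseudogenes and keratin-associated protein genes are not among them. RNA was sequenced in 3 libraries of a single group, biological replicates 1, 2 and 3, each from 3 flasks. All cells carried a lentiviral Cas9 vector and had received IFN-gamma (1000 U/mL) plus TNF (25 ng/mL) 24 h before harvest. Untreated cells were not analysed here, so every value is a level in treated cells and none is a response to the cytokines.

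Keratins are the intermediate filament proteins of epithelial cells. A filament is built from heterodimers of an acidic type I chain and a basic to neutral type II chain, so a cell needs members of both types, and the unpaired chain is degraded. The pair KRT8 and KRT18, often with KRT19 or KRT7, forms the filaments of simple epithelia such as renal tubules, whereas KRT5 and KRT14 mark basal cells, KRT1 and KRT10 suprabasal cells of the epidermis, and a separate set the hair shaft. In renal pathology, clear cell carcinomas typically stain for KRT8 and KRT18 and mostly lack KRT7. The type II genes and KRT18 lie in a cluster on chromosome 12 and the other type I genes in a cluster on chromosome 17.

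Members took 0.141% ± 0.0195 of the reads assigned to genes (SD, n = 3). The libraries held 47779, 34153 and 43371 keratin reads in replicates 1, 2 and 3, of 29199806, 26264283 and 33458691 in all. Counted as detected at a CPM (a read count scaled to library size with TMM) of at least 1 in every library, 7 of the 55 members passed, or 12.7%, against 51.4% of protein-coding genes and 18.6% of all genes. Another 3 members had at least 10 reads in some library, 5 had fewer, and 40 (72.7%) were listed at 0 reads in each library, against 28.7% of protein-coding genes listed at 0. Keratin RNA in these cells thus came from a small part of the family. A member with 0 reads could have had up to 0.11, 0.11 and 0.0862 CPM in replicates 1, 2 and 3, the level of 3 reads. This floor covers counting error only and takes reads as independent.

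Part of these zeros lie where counting may have failed. Genes whose exons lie inside the span of another gene are often listed at 0 in this table: 72.8% of protein-coding genes that have 80% or more of their exon length so placed, against 27.2% of those with no overlap. Among the members, 6 reach that 80%, and all 6 were listed at 0 (KRT80 and KRT81 on chromosome 12, KRT222, KRT23, KRT39 and KRT37 on chromosome 17). KRT81, a hair keratin, lies wholly inside the annotated span of KRT86, and KRT80 inside that of the noncoding LINC00592, which had 6, 16 and 9 reads. For these 6 members nothing can be read from the 0. Of the other 34 members at 0, 8 had part of their exons inside other genes and 26 had none.

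**Figure D1:**
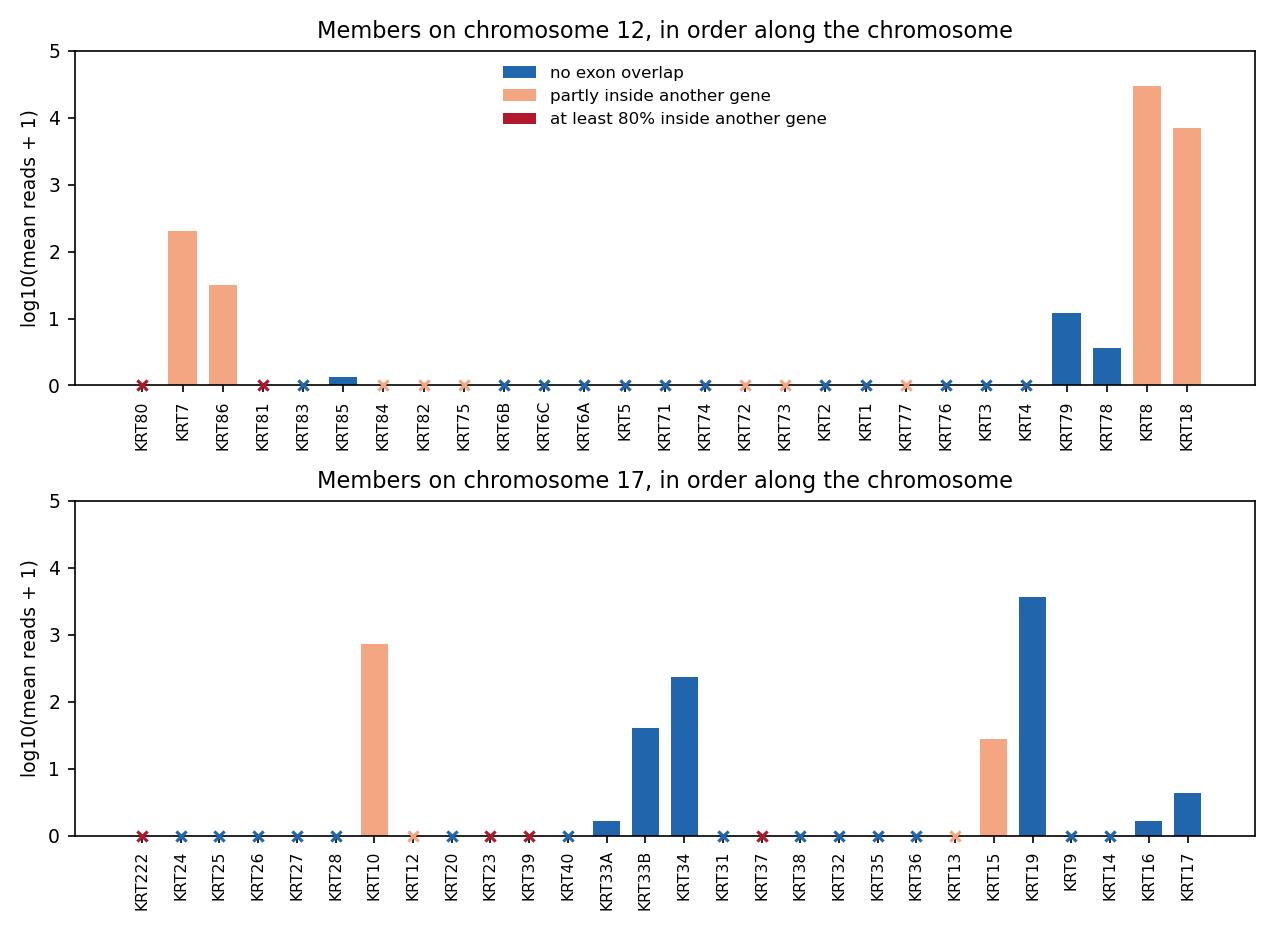
Mean reads of each member over 3 libraries, as log10(mean reads + 1), in chromosomal order for chromosome 12 (upper) and chromosome 17 (lower). Crosses mark members listed at 0 in each library, and colour gives the share of exon length inside the span of another gene. KRT8 and KRT18 stand at the end of the chromosome 12 cluster, and on chromosome 17 KRT19, KRT10, KRT34 and KRT33B rise above a row of members at 0.

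Sequence around the start was taken from RefSeq (GRCh38.p14), whose table held a promoter for 34 of the 55 members. The lines below show 120 bases before and the first 30 bases from the start, 5′ to 3′ on the gene's own strand, which is minus for each gene shown. Capitals mark TATAAA. KRT31, KRT33A, KRT33B and KRT34 are shown because they are close neighbours with very different read counts. KRT10 is shown as a detected epithelial member with the same motif, and KRT8 as the member with the most reads.
KRT31: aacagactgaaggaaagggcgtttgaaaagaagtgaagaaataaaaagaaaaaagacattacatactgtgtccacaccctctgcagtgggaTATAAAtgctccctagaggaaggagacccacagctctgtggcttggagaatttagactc
KRT33A: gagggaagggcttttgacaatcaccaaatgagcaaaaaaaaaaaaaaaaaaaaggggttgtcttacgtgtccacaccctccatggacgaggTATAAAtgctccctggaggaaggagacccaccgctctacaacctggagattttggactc
KRT33B: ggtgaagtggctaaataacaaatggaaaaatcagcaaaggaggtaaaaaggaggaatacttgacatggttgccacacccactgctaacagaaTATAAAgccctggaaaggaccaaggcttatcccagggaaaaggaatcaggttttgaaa
KRT34: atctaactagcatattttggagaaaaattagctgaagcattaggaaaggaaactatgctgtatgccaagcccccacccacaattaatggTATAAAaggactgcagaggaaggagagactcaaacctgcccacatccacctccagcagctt
KRT10: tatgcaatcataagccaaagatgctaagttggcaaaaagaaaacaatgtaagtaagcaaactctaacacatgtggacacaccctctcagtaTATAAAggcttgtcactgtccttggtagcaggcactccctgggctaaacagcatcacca
KRT8: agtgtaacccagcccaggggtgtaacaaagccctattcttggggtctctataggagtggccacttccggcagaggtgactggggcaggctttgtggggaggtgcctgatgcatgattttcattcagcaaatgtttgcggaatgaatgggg

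These stretches lie at chr17:41397579-41397728 for KRT31, chr17:41350799-41350948 for KRT33A and chr17:41369784-41369933 for KRT33B. KRT34 follows at chr17:41382277-41382426, KRT10 at chr17:40822585-40822734 and KRT8 at chr12:52926440-52926589. TATAAA, the core of the TATA box, begins 28 to 31 bases before the start in the first 5 of them. The KRT8 stretch holds no match. It belongs to a RefSeq start 23485 bases inside the GENCODE gene, so another start of KRT8 may be the one in use. The RefSeq start of KRT34 lies 97 bases inside its GENCODE gene, so another start may be in use there too. For the other genes shown, the RefSeq start lies outside the GENCODE gene. The reads do not tell starts apart.

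A match to TATAAA on the gene's strand within 50 bases before the start was found in 16 of the 34 members (47.1%), against 2.63% of 35116 promoters. On either strand of the 300 bases in the table, 21 of 34 members (61.8%) held it, against 11.5% of promoters. The 34 do not include KRT18, KRT19 and KRT7. Of the 16 members, KRT10, KRT33B and KRT34 were detected, KRT33A had 0, 0 and 2 reads, and the others were listed at 0. These shares thus mostly describe members not detected in these cells. A match is a string of letters and was not tested as a site.

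The simple epithelial keratins carried most of the keratin RNA. KRT8, KRT18 and KRT19 together held 97.2%, 96.8% and 96.8% of the keratin reads in replicates 1, 2 and 3. KRT8 alone held 71.1% ± 0.433 (SD, n = 3). Exact binomial 95% intervals, which take reads as independent, ran from 70.2% to 71.8% over the libraries. Reads favour long transcripts, and the longest transcript of KRT8 has 2862 bases, against 2088 for KRT18 and 1390 for KRT19. As shares of the summed RPKM of the family over the union of exons, KRT8 held 49.7% ± 0.48, KRT18 25.3% ± 0.864 and KRT19 18.4% ± 0.708. The 3 together held 93.4% ± 0.34. These shares depend on the length taken, as the union of KRT8 exons has 6881 bases. Over the longest transcript of each gene, mean RPKM was 353 for KRT8, 115 for KRT18 and 90.9 for KRT19. The composition by reads differed by less than 1 percentage point between libraries, although replicate 1 had the highest level of all 3 genes.

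KRT8, the type II chain of simple epithelia (GRCh38 chr12:52897187-52949954, minus strand), had 34121, 24333 and 30618 reads in replicates 1, 2 and 3. Its level per length, as RPKM (CPM per kilobase of the union of its exons), was 183, 130 and 128, a mean of 147 ± 30.9 (SD, n = 3) and 129 without replicate 1. By mean CPM it ranked 100 among all genes, and by mean RPKM 209 among protein-coding genes. Replicate 1 was the high library and the other libraries were close together.

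KRT18, the type I partner of KRT8 (chr12:52948871-52952901, plus strand), had 8231, 5561 and 7467 reads. Its RPKM was 94.2, 63.6 and 66.7, a mean of 74.8 ± 16.8. KRT18 is the type I gene that lies outside the chromosome 17 cluster: it sits next to KRT8 in the opposite orientation, and their annotated spans overlap. As a result 26.3% of KRT18 exon length and 10.7% of KRT8 exon length lie inside the partner's span.

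KRT19, the smallest keratin, which has almost no tail domain (chr17:41523617-41528308, minus strand), had 4089, 3179 and 3883 reads. It stood at 64.5, 50.1 and 47.8 RPKM, a mean of 54.1 ± 9.04, and none of its exons lie inside another gene. Replicate 1 was again the highest, and replicates 2 and 3 lay close to each other.

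KRT7, the type II chain of ductal and glandular epithelia (chr12:52232520-52252186, plus strand), had 187, 160 and 260 reads. It stood at 1.68, 1.44 and 1.83 RPKM, a mean of 1.65 ± 0.196. Thus KRT7 was far below the other simple epithelial keratins, with replicate 3 and not replicate 1 the highest; 16.9% of its exons lie inside other spans. KRT20, the type I keratin of intestinal and urothelial surface cells, had no read in any library and overlaps no other gene.

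**Figure D2:**
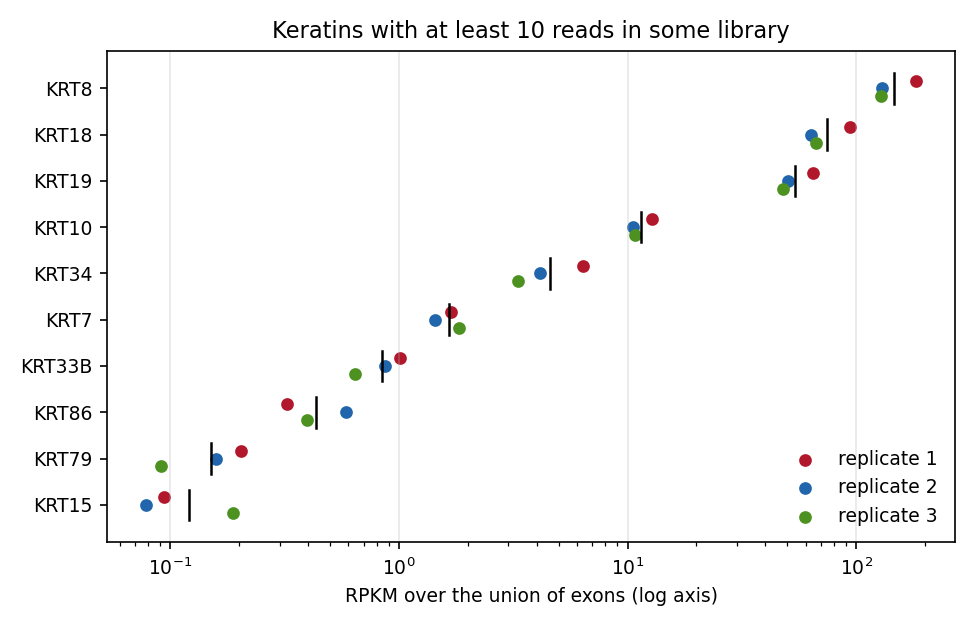
RPKM over the union of exons on a log axis for the 10 members with at least 10 reads in some library, 1 point per replicate and a black bar for the mean of 3. KRT8, KRT18 and KRT19 lie between 47.8 and 183 RPKM, and KRT79 and KRT15 between 0.0781 and 0.203.

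Ratios within a library do not depend on the scaling of libraries. KRT8 exceeded KRT18 by 0.96, 1.03 and 0.94 on the log2 scale in replicates 1, 2 and 3, a mean of 0.98 ± 0.05 or 1.97-fold. A ratio counted as past the replicate spread if its sign was the same in each library and its mean was larger than 2 SD, and this ratio was. An exact sign-flip test over 3 libraries cannot give a two-sided p below 0.25, so no test was made.

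KRT8 exceeded KRT19 by 1.43 ± 0.06 (log2 ratio, 2.7-fold), and KRT18 exceeded KRT19 by 0.46 ± 0.10 (1.37-fold). KRT7 was below KRT19, a type I chain it can pair with, by a log2 ratio of -5.03 ± 0.29, and KRT8 exceeded KRT7 by 6.46 ± 0.32 (88.3-fold). All 5 ratios that could be formed from the 15 chosen pairs passed the replicate spread, and the order KRT8, KRT18, KRT19 was the same in every library. The other pairs had a member without a read or with fewer than 10.

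The size of these ratios depended on the length taken for each gene. KRT8 has 6881 bases in the union of its exons and 2862 in its longest transcript, against 3218 and 2088 for KRT18. The log2 ratio of KRT8 to KRT18 was 1.62 over the longest transcript, 0.70 over the exon length outside other spans and 2.07 with no length scaling. The direction was the same under each choice, and the length that fits the authors' counting is unknown.

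Summed over the family, type II and type I RNA were almost level per length. The 26 type II members summed to 185, 132 and 130 RPKM in replicates 1, 2 and 3, and the 29 type I members to 179, 129 and 130 RPKM. The log2 ratio of type II to type I was 0.03 ± 0.02 and did not pass the replicate spread. Among the lengths tried, the near equality held only for the union of exons: the ratio was 0.68 over the longest transcript, 1.34 with no length scaling and -0.23 over the exon length outside other spans, and each of these passed the spread.

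**Figure D3:**
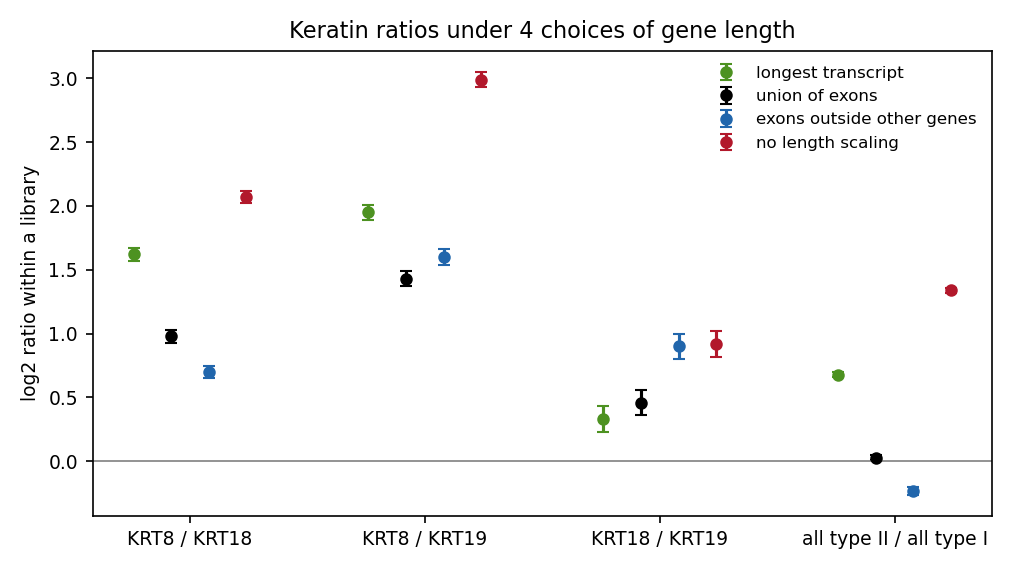
Mean log2 ratio within a library, with its SD over 3 libraries, for KRT8 over KRT18, KRT8 over KRT19, KRT18 over KRT19 and all type II over all type I members, under 4 choices of gene length. The ratios between single genes stay above 0, whereas the ratio of the family sums runs from -0.23 to 1.34.

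Of the keratins of stratified epithelia, 1 of 13 was detected and 9 were listed at 0, beside 51.4% and 28.7% of protein-coding genes. KRT10, the type I chain of suprabasal epidermis (chr17:40818117-40822595, minus strand), had 744, 619 and 807 reads, or 12.8, 10.6 and 10.8 RPKM (mean 11.4 ± 1.19). Its type II partner KRT1 had 0 reads in each library and no overlapping gene, so KRT10 was measured without KRT1. KRT10 overlaps TMEM99 on the opposite strand over 67.1% of its exon length, and TMEM99 itself had 268, 242 and 245 reads. Over the exon length outside that overlap, KRT10 would stand at 34.7 RPKM.

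KRT15, a type I chain of basal cells and of the hair follicle bulge, had 18, 15 and 46 reads, or 0.0938, 0.0781 and 0.187 RPKM. Replicate 3 was the high library. KRT5 and KRT14, the basal pair, were listed at 0 in each library, and neither overlaps another gene. KRT6A, KRT6B and KRT6C, the wound-inducible type II chains, were also at 0, and their type I partner KRT16 had 2, 0 and 0 reads. KRT17, which IFN-gamma is known to induce in keratinocytes, had 0, 2 and 8 reads. Near-identical copies exist within the KRT6 group and for KRT14, KRT16 and KRT17, so single reads there are of uncertain origin.

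Hair keratins were few but present. KRT34, a type I hair keratin (chr17:41377650-41382403, minus strand), had 302, 196 and 201 reads, or 6.35, 4.12 and 3.30 RPKM, a mean of 4.59 ± 1.58. Its neighbour KRT33B (chr17:41363494-41369800) had 44, 38 and 36 reads, or 1.01, 0.871 and 0.644 RPKM. Both were highest in replicate 1 and lowest in replicate 3, and neither overlaps another gene. By contrast KRT33A, on the far side of KRT33B, had 0, 0 and 2 reads, and KRT31, on the far side of KRT34, had 0 in each library. Of the 11 type I hair keratins 2 were detected, and of the 6 type II hair keratins none was at this threshold. Over the whole table, 51.4% of protein-coding genes and 18.6% of all genes were detected. KRT39, KRT37 and KRT81 are hair keratins that have at least 80% of their exons inside other spans, so their 0 cannot be read.

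Of the promoter stretches of these 4 neighbours, those of KRT31 and KRT33A were the most alike, identical at 70.6% of aligned positions. The other pairs among the 4 matched at 53.5% to 59.9%, about as much as each of the 4 matched the epithelial KRT10 (53.4% to 56.7%). Each of the 4 matched the KRT8 stretch less, at 43.6% to 47.7%. KRT33B and KRT34, the detected neighbours, matched at 55.2%. All 4 carried TATAAA at nearly the same distance from the RefSeq start, while their reads ranged from 0 to 302.

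KRT86, a type II hair keratin (chr12:52249300-52309163, plus strand), had 21, 38 and 33 reads, or 0.773, 1.40 and 0.949 CPM, and so fell just under the detection threshold. KRT33B, at 1.62, 1.40 and 1.03 CPM, lay just above it. The long annotated span of KRT86 contains KRT81 on the opposite strand, and no KRT86 exon lies inside KRT81. Whether reads of KRT81 were counted for KRT86, dropped or kept apart is unknown, because the way of counting is not given. Its possible partners among the type I hair keratins, KRT33B and KRT34, were the highest of that class. Hair keratins together took 0.732% ± 0.0917 of the keratin reads and 1.98% ± 0.252 of the summed keratin RPKM.

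The remaining members had traces. KRT79, for which the mouse gene marks the hair canal and sebaceous duct, had 14, 11 and 8 reads, or 0.203, 0.159 and 0.0905 RPKM. KRT78 had 6, 0 and 2 reads, and KRT85, a type II hair keratin, had 0, 1 and 0. In the order of mean RPKM, KRT8, KRT18, KRT19, KRT10, KRT34, KRT7, KRT33B, KRT86, KRT79 and KRT15, neighbours were past their replicate spread with these exceptions: KRT33B over KRT86 (log2 0.97 ± 0.58) and KRT79 over KRT15 (log2 0.36 ± 1.22). KRT86 over KRT79 stood at the limit of the rule (log2 1.56 ± 0.78). Without replicate 1 the ratio of KRT33B to KRT86 passed, on log2 values of 0.58 and 0.70 in replicates 2 and 3.

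Replicate 1 stands apart from the other libraries in this series, with transcripts of low GC content lower there. From the lowest to the highest of 20 GC bins of detected protein-coding genes, the median of log2 replicate 1 over the other libraries' mean ran from -1.41 to 0.42. Keratin transcripts are GC-rich: the median over the 55 members was 56.5%, against 48% over 10201 detected protein-coding genes. Of the 7 detected members 6 (85.7%) were highest in replicate 1, beside 48.5% of all detected genes. KRT8 was higher in replicate 1 by a log2 ratio of 0.50 and KRT18 by 0.53, where genes of like GC content had a median of 0.33 and a range between the 10% and 90% quantiles of -0.04 to 0.54. KRT19 was higher by 0.40 beside a median of 0.39, and KRT10 by 0.25 beside 0.26.

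KRT34 differed more, with a log2 ratio of 0.78 beside a 90% quantile of 0.53 for its bin. KRT7 was level at 0.04, beside a median of 0.39 for its bin. KRT86 and KRT15 had log2 ratios of -0.60 and -0.50 to the mean of the other libraries, on counts of at most 46 reads. KRT86 was lowest in replicate 1. KRT15 was not: its CPM was 0.663, 0.552 and 1.32 in replicates 1, 2 and 3. Values without replicate 1 were 129 RPKM for KRT8, 65.2 for KRT18, 48.9 for KRT19, 10.7 for KRT10 and 3.71 for KRT34.

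**Figure D4:**
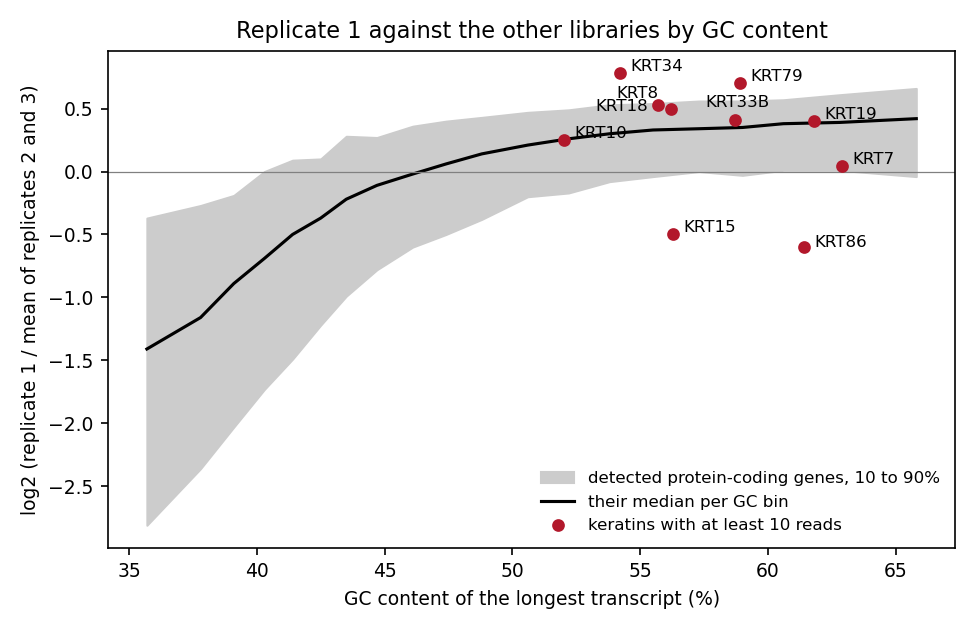
Log2 of replicate 1 over the mean of the other libraries against GC content of the longest transcript, for the 10 members with at least 10 reads in some library (red points), with the median (line) and the 10 to 90% range (grey) of detected protein-coding genes in 20 GC bins. KRT8, KRT18, KRT19, KRT10, KRT33B and KRT7 lie within the grey range, KRT34 and KRT79 above it, and KRT15 and KRT86 below it.

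Processed pseudogenes of the simple keratins are common in the human genome, and reads can be shared with them. The table holds 51 rows named as KRT8 copies, 67 as KRT18 copies and 5 as KRT19 copies. KRT8 copies had 258, 316 and 431 reads, or 0.756%, 1.30% and 1.41% of the KRT8 reads in replicates 1, 2 and 3, and KRT18 copies had 24, 34 and 59. The copies of KRT19 had none. Most of these reads fell on KRT8P12 on chromosome 3, a pseudogene with 250, 301 and 406 reads that was detected at 10.7 ± 1.29 CPM. Whether they came from KRT8P12 itself was not tested. KRT8P12 was lower in replicate 1 (log2 ratio -0.31), whereas KRT8, of nearly the same GC content (56.2% for KRT8 and 56.4% for KRT8P12), was higher there.

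Keratin-associated proteins crosslink hair keratins in the hair shaft. Of 94 such genes in the table, 8 had a read in some library and 1 was detected. Over the whole table, 51.4% of protein-coding genes and 18.6% of all genes were detected. The detected gene was KRTAP2-3, which lies between the type I genes on chromosome 17, with 134, 77 and 135 reads or 3.88 ± 1.05 CPM.

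Among 15 other intermediate filament genes, 7 were detected, a share near the 51.4% of protein-coding genes, with a median of 0.229 RPKM against 0.482 over protein-coding genes. VIM, the filament protein of mesenchymal cells, led at 528 ± 83.8 RPKM, followed by the nuclear lamins LMNB2 at 188 ± 40.9 and LMNA at 92.6 ± 18.3 RPKM. KRT8 was below VIM by a log2 ratio of -1.85 ± 0.07, KRT18 by -2.83 ± 0.09 and KRT19 by -3.29 ± 0.04, all past the replicate spread. Other genes' spans cover 41.5% of VIM exon length, and with only the uncovered exon length of each gene the KRT8 ratio was -2.46. The KRT8 ratio was -1.54 over the longest transcript and -1.44 with no length scaling. Under these choices the KRT18 ratio ran from -3.51 to -3.16 and the KRT19 ratio from -4.43 to -3.49. The filament genes of neurons and lens were mixed. NEFL, the light neurofilament chain, had 2381, 2113 and 3012 reads and stood at 19.4 ± 1.25 RPKM, and the lens gene BFSP1 was detected at 0.382 ± 0.0615 RPKM. NEFH had 9, 4 and 4 reads, whereas PRPH, INA, NEFM and BFSP2 were listed at 0 in each library; PRPH lies wholly inside other spans.

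Keratin filaments end on desmosomes, through desmoplakin, and are bound by other plakins. Of 20 such genes 12 were detected, a share near the 51.4% of protein-coding genes, and the median of the 20 was 2.96 RPKM against 0.482 over protein-coding genes. PLEC, which links keratins to hemidesmosomes and to other filaments, stood at 149 ± 34.9 RPKM, PERP, a desmosomal membrane protein, at 31.6 ± 0.561 and MACF1 at 17.4 ± 4.56 RPKM. DSP, desmoplakin itself, had 818, 1302 and 1767 reads, or 4.26 ± 1.11 RPKM, with replicate 1 the lowest. Of the desmosomal cadherins DSG2 was detected at 4.96 ± 1.17 RPKM, while DSG1, DSG3, DSG4, DSC1 and DSC2 were listed at 0, as was the plaque protein PKP1. DSG4 and DSC1 have at least 80% of their exons inside other spans.

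Of 15 genes listed as keratin organisers and modifiers, 7 were detected, again near the 51.4% of protein-coding genes. The list includes KRTCAP2 and KRTCAP3, whose names refer to keratinocytes and not to keratins. The adaptor YWHAZ stood at 78 ± 3.45 RPKM, TRADD, a TNF receptor adaptor that can bind KRT18, at 29.1 ± 5.77 and FAM83H, which recruits casein kinase to keratin filaments, at 19 ± 5.62 RPKM. KRTCAP2, FLG and PPP2CA were at 0, and all 3 have at least 80% of their exons inside other spans.

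The labelled cell type is a renal cell carcinoma epithelial cell. Of 14 renal epithelial markers 8 were detected, a share near the 51.4% of protein-coding genes. PAX2, CA9, EPCAM and PAX8 were among the 8. The undetected were CDH1, E-cadherin, with 32, 6 and 7 reads, ANPEP with 0, 4 and 2, LRP2 and AQP1 with 0, 2 and 0 each, and GGT1 and UMOD, both listed at 0. None of the 14 squamous and keratinocyte markers in the table was detected, and 9 were listed at 0. TP63, which is among the 14, had 2, 0 and 0 reads. The summed level of the 14 was 0.0696 to 0.438 RPKM. Of 13 fibroblast, endothelial and blood markers 1 was detected, COL1A1, and PTPRC was at 0.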

How the data were processed

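The authors' deposited signal for a gene is its read count over a library-specific size factor, a form inferred from the numbers. In each library 100% of nonzero values were whole multiples of 1 read, within 0.01 of a read, and the recovered factors were 0.946, 0.971 and 1.24. Per the submitters' processing notes, the tools included featureCounts 2.0.0, HISAT2 2.1.0 and cutadapt 1.18, and the build was hg38. How reads were counted (strand, exon or gene level, annotation) is not given in the sources. Counts of 2 exceeded counts of 1 (1621 against 269 genes in replicate 1), so mates may have been counted singly. Intervals and floors take reads as independent and cover no error other than counting error. If mates were counted singly, the intervals are too narrow and the floors too low.

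Identifiers were matched without version to GENCODE 29 (GRCh38): 96.3% matched, with 61.5% of the same version, so lengths and spans may differ from the authors'. Library scaling was by TMM (edgeR 4.0.16, R 4.3.3), and DESeq2 1.42.0 gave alternative size factors. Log2 levels used a pseudocount of 0.1. A single group allows no comparison of conditions, and the SD measures the spread between replicates. The named genes were all members with at least 10 reads in some library, members of the chosen pairs, and of each other list the 3 highest and those at 0; DSP, DSG2, the markers and others were chosen after their values were seen. Members, lists and pairs were chosen with earlier results of these data known. Promoter stretches were aligned globally (match 1, mismatch -1, gap opening -2, extension -0.5). Recovery of reads, ratios and GC correction were tested on simulated data. The planned protein identities were not computed.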

Additional observations from a re-analysis of the deposited data

How the results depend on the processing

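The count of 7 detected members was 4 at 10 CPM, 10 at 0.1 CPM or with at least 1 read in every library, 9 with at least 10 reads in every library, and 7 with library totals, DESeq2 size factors, the deposited size factors and without each replicate. The log2 ratio of KRT8 to KRT18 ran from 0.95 to 0.99 without each replicate, and all 5 pair ratios kept their direction and their call under the 4 length and GC settings and without each replicate. The ratio of type II to type I sums, 0.03, turned to -0.23 over the exon length outside other spans, and passed the replicate spread at 0.68 over the longest transcript, at 1.34 with no length scaling and at 0.04 with pseudogene reads added to the parent gene. It ran from 0.02 to 0.04 without each replicate and passed the spread at 0.04 without replicate 3. The KRT8 share of keratin reads was 70.4% with pseudogene rows counted and 70.9% to 71.3% without each replicate. With GC correction, KRT8 was higher in replicate 1 by 0.17 in place of 0.50, and KRT10 and KRT7 turned to -0.01 and -0.35. The correction takes out, in each library, the median deviation of the gene's GC bin, so these changes follow from its construction. Why replicate 1 differs by GC content was not tested. Of 120 alternative values of member levels 24 moved by more than 1 SD, 10 of them with no length scaling. No paired analysis was possible because there is a single group. Depth limits KRT33B, KRT86, KRT79 and KRT15, whose counts are of at most 46 reads.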
